A study of Equus caballus with 9 samples.

Results

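The lysyl oxidases LOX, LOXL1, LOXL2, LOXL3 and LOXL4, the lysyl hydroxylases PLOD1 and PLOD2 and the prolyl 4-hydroxylase alpha subunits P4HA1, P4HA2 and P4HA3 were followed across 9 samples of cultured equine cells. These 10 genes were taken by symbol from the 16661 distinct genes named singly on the array, and each was measured by 1 probe set of the 30559 in the table. RNA was hybridised to Affymetrix expression arrays, and the values are deposited log2 intensities, so that a difference of 1 is a 2-fold difference. The study asked how mesenchymal cells found in blood following electroacupuncture (acupuncture with a weak electric current applied to the needles) relate to those of marrow and fat.

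The bone marrow group (BM-MSC in the labels) held 3 arrays from 3 untreated horses. The blood-derived group (EA-ADSC) held 3 arrays from 3 other horses, whose blood mononuclear cells were taken 2 h after electroacupuncture. Tailhead fat of untreated control horses gave the 3 arrays of the adipose group (AD-MSC), for which no horse label is given, so the spread of that group may be partly technical. All groups were isolated with Ficoll and cultured for 96 h on plastic (15% serum), RNA was taken from the adherent cells, and 100 ng was amplified. Tissue, treatment and horse cannot be told apart between the blood-derived group and either control group, and group and processing time cannot be told apart for the adipose arrays, whose run is not described in the labels. Fewer cells of a type and less RNA per cell cannot be told apart in such bulk samples.

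Collagen chains are modified in the endoplasmic reticulum before they fold. Prolyl 4-hydroxylase, a tetramer of alpha subunits and the protein disulfide isomerase P4HB, makes the hydroxyproline that keeps the triple helix stable at body temperature. Lysyl hydroxylases modify lysines, which decides the kind of cross-link that can form later. Outside the cell the copper-dependent lysyl oxidases convert lysines of collagen and elastin to aldehydes, from which the cross-links of the fibre arise. Cultured mesenchymal stromal cells secrete fibrillar collagen, and in human cells several of these genes, among them P4HA1, PLOD2 and LOX, are known targets of hypoxia-inducible factors.

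The check of the labelled cell type used 11 mesenchymal stromal markers. All had group means above 4.62, the median of all deposited values. VIM, an intermediate filament gene, lay at 12.63 ± 0.06 (SD, n = 3, as for all values below) in bone marrow, 12.56 ± 0.13 in blood-derived and 12.53 ± 0.05 in adipose cells. PDGFRB lay closest to the median, at 5.06 ± 0.13, 5.06 ± 0.09 and 4.98 ± 0.06 in the same order. The median is a low bar, so passing it does not settle the cell type. The markers were not level across groups: ENG, NT5E, ITGB1 and LUM were lower and CD44 higher in adipose than in bone marrow cells, and THY1, ENG, ITGB1 and ALCAM were higher and PDGFRA lower in blood-derived than in adipose cells. Against bone marrow, the call of CD44 was lost without bone marrow replicate 1 or 2 or adipose replicate 3, and that of NT5E without any 1 array other than blood-derived replicates 2 and 3. Against adipose cells, THY1 was lost without blood-derived replicate 1 or 2 or adipose replicate 1, and PDGFRA without adipose replicate 3 or in a fit of the 2 groups alone. ALCAM and CD44 were also higher in blood-derived than in bone marrow cells, CD44 not without any 1 array of these 2 groups.

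Leukocyte markers were mixed, with means below the median of the table for 5, 7 and 7 of 11 in bone marrow, blood-derived and adipose cells. PTPRC, the pan-leukocyte marker CD45, was below it in all groups, at 3.97 ± 0.57, 3.11 ± 0.10 and 3.14 ± 0.51 in the same order. CD68, a macrophage marker that stromal cells can also express, was above it in all groups, at 8.54 ± 0.43, 7.58 ± 0.70 and 9.97 ± 1.32. FCER1G, a myeloid receptor subunit, was at 7.53 ± 1.09, 3.93 ± 0.49 and 6.58 ± 0.42, and TYROBP, a myeloid adaptor, was at 7.01 ± 0.98, 4.74 ± 0.37 and 4.53 ± 0.06. How far a dim probe set lies above background could not be judged, so folds, such as those that rest on the adipose values of PLOD2, LOXL2 and LOXL3, hold for the deposited values only.

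Of the 10 genes 9 had their lowest mean in adipose cells and the exception was LOXL4. In 5 of them (LOX, PLOD1, PLOD2, P4HA1 and P4HA3) the order was bone marrow, blood-derived, adipose, and in 4 (LOXL1, LOXL2, LOXL3 and P4HA2) it was blood-derived, bone marrow, adipose. By limma's moderated F test across the 3 groups, with Benjamini-Hochberg adjustment over all probe sets and a threshold of 0.05, 9 of the 10 passed, against 7.48% of all probe sets. LOXL4 did not pass (adjusted p = 0.115). The blood-derived and bone marrow means differed by at most 0.78 on the log2 scale, while adipose cells lay up to 4.54 below bone marrow cells.

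**Figure D1:**
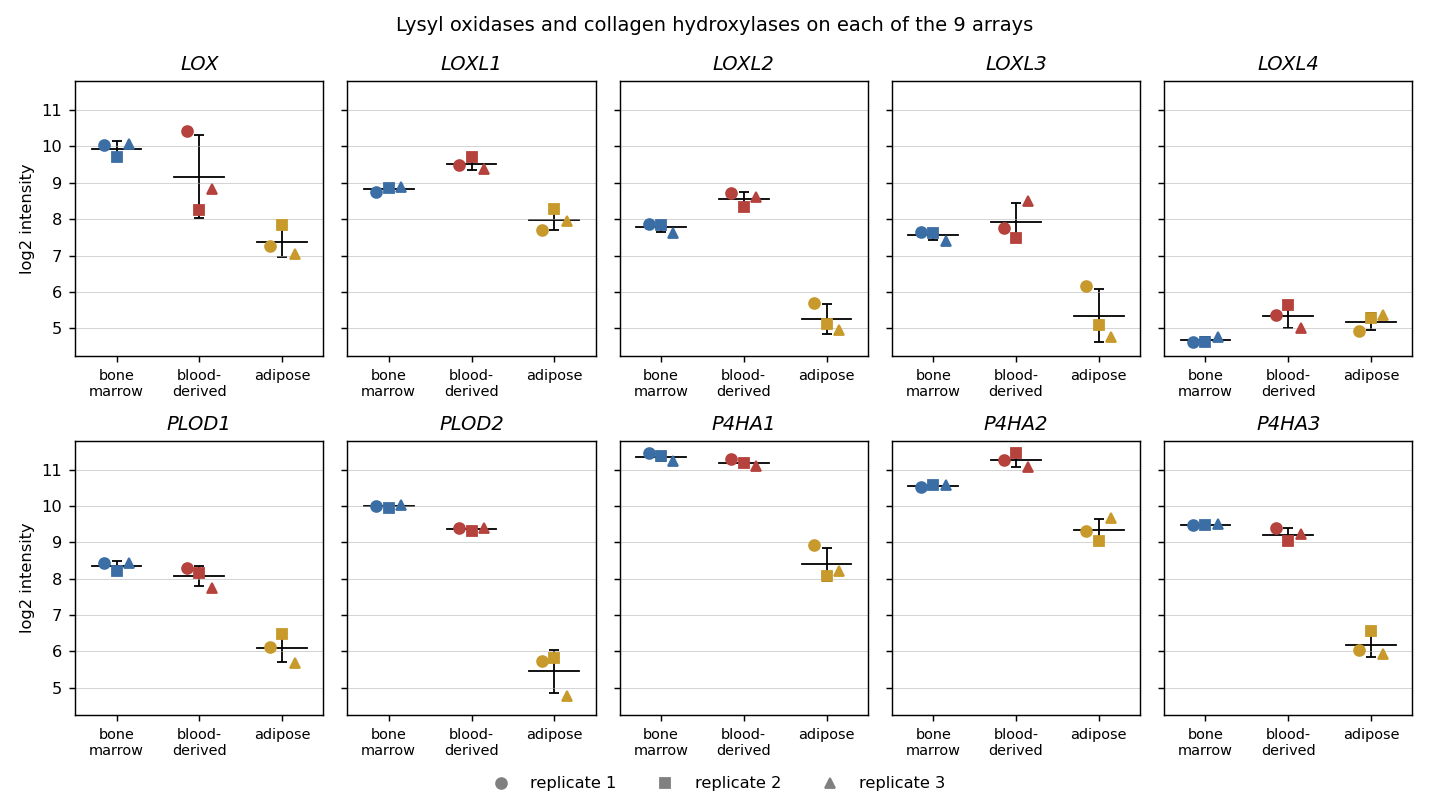
Log2 intensity of each of the 10 genes on each of the 9 arrays, by group; symbols mark the replicate, horizontal bars the group mean and vertical bars 1 SD (n = 3 arrays). Levels can be compared within a panel but not between panels; within a panel the adipose arrays lie below the other 6 arrays for 9 genes, with LOXL4 as the exception.

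The prolyl 4-hydroxylase alpha subunits, which carry the catalytic site, were all lower in adipose cells. P4HA1, the main alpha subunit of most fibroblasts, read 11.45, 11.37 and 11.24 on the bone marrow arrays, 11.30, 11.20 and 11.09 on the blood-derived arrays and 8.92, 8.07 and 8.20 on the adipose arrays. The bone marrow and blood-derived values overlapped and all 3 adipose values lay well below them. Adipose cells had 7.76-fold less P4HA1 than bone marrow cells (log2 difference -2.96, SE 0.21, adjusted p = 2.6e-04) and 6.97-fold less than blood-derived cells (adjusted p = 2.8e-04).

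P4HA2, an alternative alpha subunit, read 10.54, 10.58 and 10.58 in bone marrow, 11.25, 11.45 and 11.06 in blood-derived and 9.32, 9.04 and 9.66 in adipose cells. No 2 groups overlapped, and the blood-derived arrays were the highest. The adipose mean was 2.33-fold below bone marrow (log2 difference -1.22, SE 0.17, adjusted p = 0.00584) and 3.76-fold below blood-derived cells (adjusted p = 6.8e-04). The difference of 0.69 between blood-derived and bone marrow cells did not pass (SE 0.17, adjusted p = 0.137).

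P4HA3, the third alpha subunit, was the most even of the 10 genes in bone marrow, at 9.49, 9.48 and 9.51. It read 9.39, 9.03 and 9.22 in blood-derived cells and 6.04, 6.56 and 5.93 in adipose cells. Each blood-derived array lay below each bone marrow array by a small margin, and the adipose arrays lay far below both. Its adipose level was 9.96-fold below bone marrow (log2 difference -3.32, SE 0.18, adjusted p = 8.6e-05) and 8.20-fold below blood-derived cells (adjusted p = 1.4e-04), and the blood-derived and bone marrow means differed by -0.28 (adjusted p = 0.651).

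The lysyl hydroxylase PLOD2, which acts on the telopeptide lysines of collagen and so sets the amount of pyridinoline cross-links, showed the largest difference of the 10. It read 9.997, 9.951 and 10.038 in bone marrow, 9.41, 9.31 and 9.40 in blood-derived and 5.75, 5.83 and 4.78 in adipose cells. The arrays of each group lay apart from those of the others, and adipose replicate 3 was clearly the lowest. Adipose cells had 23.3-fold less PLOD2 than bone marrow cells (log2 difference -4.54, 95% interval -5.12 to -3.97, adjusted p = 8.6e-05) and 15.1-fold less than blood-derived cells (log2 difference 3.92, SE 0.25, adjusted p = 1.5e-04). The blood-derived cells lay 0.62 below bone marrow cells, which did not pass in limma (95% interval -1.20 to -0.05, adjusted p = 0.384). That interval rests on 1 spread shared by the 3 groups. The SD of PLOD2 was 0.04 in bone marrow, 0.06 in blood-derived and 0.58 in adipose cells. A fit of bone marrow and blood-derived cells alone did not call PLOD2 either.

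PLOD1, which hydroxylates lysines in the helical part of collagen, read 8.42, 8.22 and 8.45 in bone marrow, 8.30, 8.15 and 7.76 in blood-derived and 6.11, 6.48 and 5.69 in adipose cells. The first 2 groups overlapped and the adipose arrays stood apart. PLOD1 was 4.82-fold lower in adipose than in bone marrow cells (log2 difference -2.27, SE 0.22, adjusted p = 9.4e-04) and 3.93-fold lower than in blood-derived cells (adjusted p = 0.0018).

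LOX, the enzyme that gives the family its name, was the most variable of the 10 genes in the blood-derived group, with an SD of 1.14. It read 10.43, 8.24 and 8.83 on the blood-derived arrays, 10.03, 9.71 and 10.08 on the bone marrow arrays and 7.25, 7.84 and 7.04 on the adipose arrays. Blood-derived replicate 1 lay above every bone marrow array, and replicates 2 and 3 lay between the bone marrow and the adipose arrays. LOX was 5.89-fold lower in adipose than in bone marrow cells (log2 difference -2.56, SE 0.50, adjusted p = 0.0216). That call was lost without any 1 of the bone marrow arrays (adjusted p = 0.0758, 0.0616 and 0.0748 in replicate order) and without adipose replicate 1 (0.0531) or 3 (0.0747). Against adipose cells the blood-derived mean was 1.79 higher, which missed the threshold (SE 0.50, adjusted p = 0.0714). It passed without blood-derived replicate 2 (log2 difference 2.26, adjusted p = 0.0412), and without blood-derived replicate 1 the difference was 1.16 (adjusted p = 0.0676). The difference of -0.77 between blood-derived and bone marrow cells became -1.40 without blood-derived replicate 1 and -0.30 without replicate 2, and passed in none of these fits (adjusted p = 0.653, 0.0934 and 0.922). The F test of LOX was lost in 7 of the 9 fits without 1 array, those without blood-derived replicate 1 or 2 being the exceptions, with adjusted p up to 0.119. It was also lost with the replicate number as a block (adjusted p = 0.0608).

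LOXL1, known for its part in elastic fibres, read 8.74, 8.85 and 8.89 in bone marrow, 9.49, 9.71 and 9.38 in blood-derived and 7.71, 8.28 and 7.95 in adipose cells. The 3 groups formed 3 separate bands, with the blood-derived cells on top. Adipose cells were 2.92-fold below blood-derived cells (log2 difference 1.55, SE 0.16, adjusted p = 0.00143) and 1.79-fold below bone marrow cells (log2 difference -0.84, SE 0.16, adjusted p = 0.0222). The second call was lost without bone marrow replicate 1 (adjusted p = 0.0625), 2 (0.0786) or 3 (0.0791), without adipose replicate 3 (0.0675) and in a fit of these 2 groups alone (0.0532). The blood-derived mean was 0.70 above bone marrow (adjusted p = 0.113).

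LOXL2, which also oxidises basement membrane collagen, read 7.87, 7.85 and 7.62 in bone marrow, 8.71, 8.35 and 8.60 in blood-derived and 5.71, 5.10 and 4.94 in adipose cells. Again the groups did not overlap and the blood-derived arrays were highest. Of the lysyl oxidases it differed most between blood-derived and adipose cells, at 9.87-fold (log2 difference 3.30, SE 0.21, adjusted p = 1.5e-04), and it was 5.77-fold lower in adipose than in bone marrow cells (adjusted p = 4.7e-04). Its difference of 0.78 between blood-derived and bone marrow cells (95% interval 0.30 to 1.25) had an adjusted p of 0.163.

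LOXL3, a close relative of LOXL2, read 7.65, 7.63 and 7.40 in bone marrow, 7.75, 7.48 and 8.51 in blood-derived and 6.17, 5.08 and 4.77 in adipose cells. Blood-derived replicate 3 was high and adipose replicate 1 was high within their groups, and the first 2 groups overlapped. LOXL3 was 4.65-fold lower in adipose than in bone marrow cells (log2 difference -2.22, SE 0.38, adjusted p = 0.0126) and 5.93-fold lower than in blood-derived cells (adjusted p = 0.00603). The first of these calls was lost without bone marrow replicate 1 (0.0531) or 2 (0.0504).

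LOXL4 was the only lysyl oxidase whose adipose values did not lie lowest. It read 4.61, 4.63 and 4.77 in bone marrow, 5.37, 5.64 and 5.01 in blood-derived and 4.92, 5.27 and 5.35 in adipose cells. All values lay near the median of the table, and the bone marrow arrays lay below the 6 others. Neither the blood-derived (log2 difference 0.67, 95% interval 0.25 to 1.09, adjusted p = 0.175) nor the adipose cells (0.51, 95% interval 0.09 to 0.94, adjusted p = 0.158) differed from bone marrow past the threshold. The blood-derived and adipose cells differed by 0.15 (95% interval -0.27 to 0.58, adjusted p = 0.694).

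Counted over the family, 9 of 10 genes were lower in adipose than in bone marrow cells, against 3.25% of all probe sets, and 0 were higher, against 2.83%. The arrays of the 2 groups did not overlap for any of the 10, LOXL4 being the 1 that was higher, against 25.6% of all probe sets. The median log2 difference of the 10 was -2.40, and that of all probe sets was 0.04. Without bone marrow replicate 1 or 2, 6 of the 10 were called, LOX, LOXL1 and LOXL3 being those lost. The 10 genes were chosen with earlier results of these data known, so such shares, here and below, describe the family and do not test it. All probe sets include 13427 without a gene symbol.

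Between blood-derived and adipose cells 8 of 10 members of the family had higher levels on the blood-derived side, against 3.49% of all probe sets, and 0 were lower, against 3.43%. LOX and LOXL4 were those not called. Arrays did not overlap for 9 genes, against 23.5% of all probe sets, and the median log2 difference was 2.27 beside -0.02 over all probe sets. This comparison shares the adipose arrays with the one before it, so the 2 sets of values are not independent.

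Between blood-derived and bone marrow cells 0 of 10 genes were called in either direction by limma, where 0.350% of all probe sets were higher and 0.465% lower. At an unadjusted p under 0.05 there were 5 of 10, against 11.7% of all probe sets: LOXL1, LOXL2, LOXL4 and P4HA2 with higher values in blood-derived cells and PLOD2 with lower ones. Arrays did not overlap for 6 of the 10, against 18.4% of all probe sets. The median difference was 0.10 for the 10 genes and 0.01 for all probe sets, and the median absolute difference was 0.65 against 0.16.

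**Figure D2:**
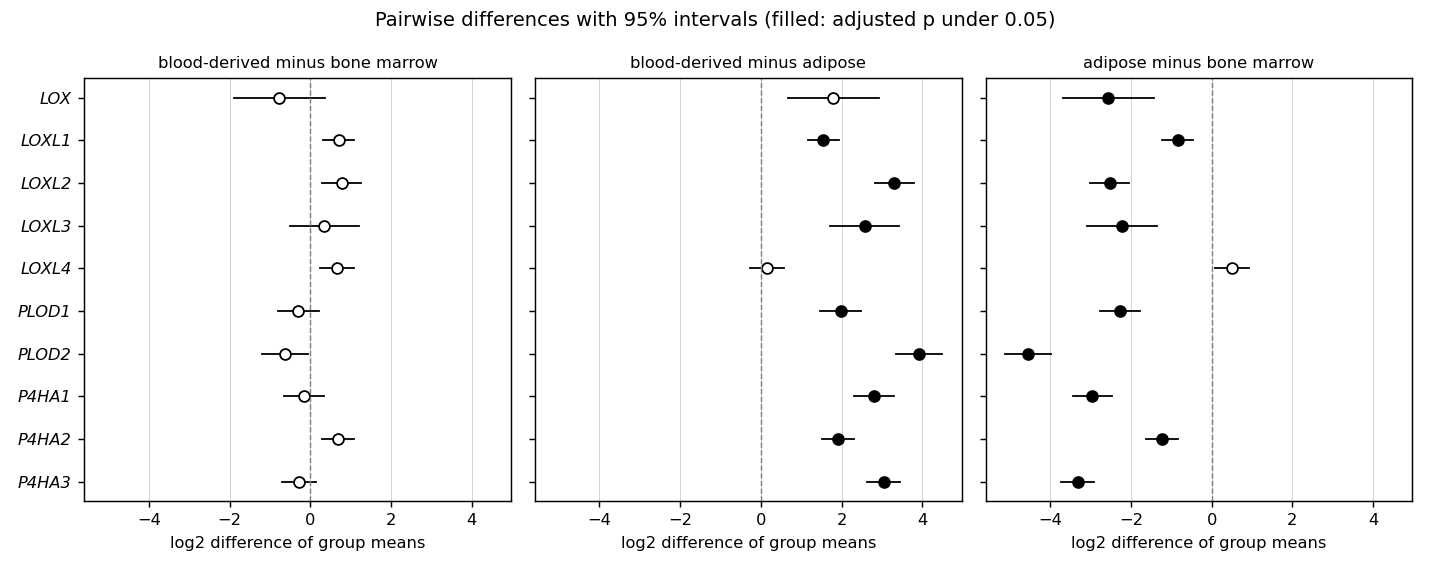
Log2 differences of group means for the 10 genes in the 3 pairwise comparisons, with 95% intervals from limma; filled points had an adjusted p under 0.05. Points of the left panel lie within 0.78 of 0, and all but LOXL4 lie left of 0 for adipose minus bone marrow cells.

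The spread between arrays of the same group differed by group. The median SD of the 10 genes was 0.10 in bone marrow, 0.19 in blood-derived and 0.40 in adipose cells, beside 0.17, 0.20 and 0.25 over all probe sets. The fit used 1 spread per gene for the 3 groups. Where the adipose spread was the largest, it also widened the interval between blood-derived and bone marrow cells. In the adipose group replicate 3 held the lowest value for 6 of the 10 genes and replicate 2 the highest for 5. The blood-derived replicate 1 held the highest value of its group for 6 genes and the lowest for 0.

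Differences between paralogs were also taken within each array. P4HA1 minus P4HA2 was 0.79 ± 0.13 in bone marrow, -0.06 ± 0.17 in blood-derived and -0.95 ± 0.53 in adipose cells, and the 3 groups did not overlap. PLOD2 minus PLOD1 was 1.63 ± 0.08 in bone marrow, 1.30 ± 0.29 in blood-derived and -0.64 ± 0.27 in adipose cells, where all 3 arrays lay below 0. LOX minus LOXL1 was 1.11 ± 0.23, -0.36 ± 1.22 and -0.60 ± 0.26, with the blood-derived arrays spread from -1.47 to 0.95. Only changes of such a difference between groups can be read, since its level depends on the probes, and none was tested.

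Over the 9 arrays the patterns of 9 genes ran together. Pearson correlations of the 36 pairs without LOXL4 ran from 0.62 (LOX with LOXL1) to 0.99 (PLOD2 with P4HA3), and the 9 pairs with LOXL4 ran from -0.44 to 0.24. These values describe 9 arrays in 3 groups, so they largely carry the group differences given above. Among 16660 other genes the most alike to PLOD1 was PLOD2 (r = 0.987). LOXL1 was most like P4HB, the partner of the alpha subunits (r = 0.993), and PLOD2 was most like COL5A2, a fibrillar collagen chain (r = 0.995). P4HA1 was most like CTHRC1, a secreted collagen triple helix repeat protein, and SPARC, a collagen-binding matrix protein, and P4HA3 was most like TMED9, a cargo receptor of the early secretory pathway, and SULF1, a heparan sulfatase. The second gene for P4HA2 was P3H4, known in mice as a partner of PLOD1, after the organic cation transporter SLC22A3. LOXL4 had TIMELESS, of the replication fork, and RHOU, a small GTPase, as its nearest genes, at 0.95 and 0.94. For LOX these were SRRD and TRMT12, for LOXL2 MEIS3 and INVS, for LOXL3 GTF2IRD1 and FBXL4, for LOXL1 POFUT2 after P4HB, and for PLOD1 and PLOD2 BAG5 and PRDX2 in second place.

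**Figure D3:**
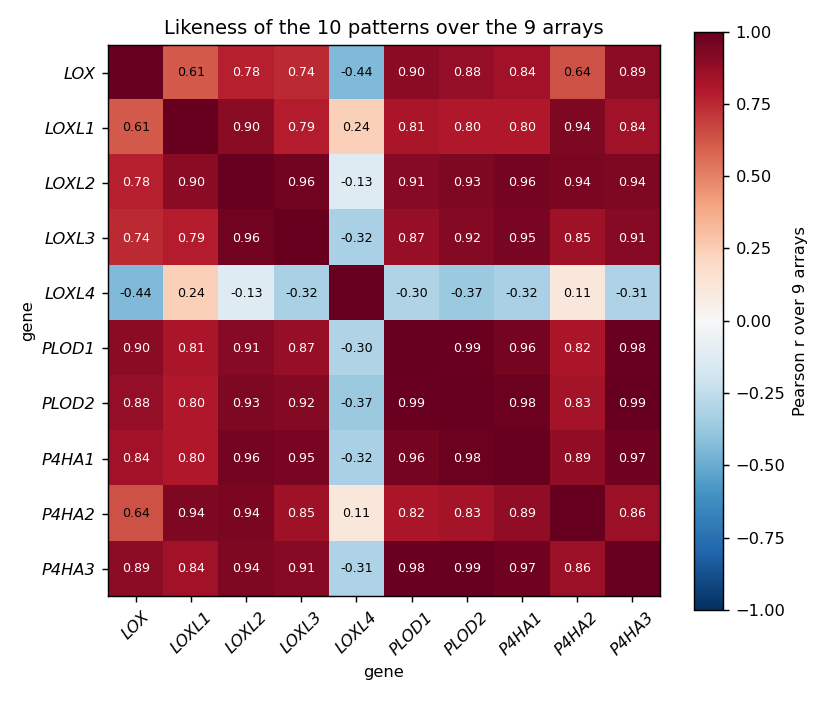
Pearson correlation of each pair of the 10 genes over the 9 arrays (3 per group), from blue (-1) to red (1). The LOXL4 row is pale or blue, while the other 36 pairs lie between 0.62 and 0.99.

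Chaperones and other enzymes of collagen maturation in the endoplasmic reticulum were measured beside the hydroxylases. For this and the following lists the shares of all probe sets called are those given above for each comparison. Of the 20 measured genes of the endoplasmic reticulum list 13 were higher in blood-derived than in adipose cells and 0 lower, with a median log2 difference of 1.23. FKBP10, a collagen prolyl isomerase on which PLOD2 activity depends, was at 7.79 ± 0.11 in bone marrow, 7.97 ± 0.15 in blood-derived and 6.00 ± 0.09 in adipose cells. SERPINH1, the collagen chaperone, was at 9.97 ± 0.60, 10.59 ± 0.30 and 6.93 ± 0.24. The adjusted p of FKBP10 and SERPINH1 were 1.5e-04 and 4.3e-04 between blood-derived and adipose cells and 2.4e-04 and 0.0010 between adipose and bone marrow cells. P3H1, a prolyl 3-hydroxylase, and P3H4 were also higher in blood-derived than in adipose cells, by 1.94 and 1.74 (adjusted p = 4.6e-04 and 3.1e-04).

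Against bone marrow cells 13 of the 20 (9 without bone marrow replicate 1) were lower in adipose cells and 0 higher, with a median of -1.12. CREB3L1, a transcription factor of collagen secretion, was among them (log2 difference -1.61, adjusted p = 0.00101), with P3H4 (-1.25, adjusted p = 0.00168). Chosen after their values were seen, PLOD3, the third lysyl hydroxylase, was 1.09 lower and P4HB 1.14 lower in adipose than in bone marrow cells (adjusted p = 0.00849 and 0.0112). In blood-derived against bone marrow cells P3H2, another prolyl 3-hydroxylase, was 1.31 higher (adjusted p = 0.0249) and CREB3L1 was 1.01 lower (adjusted p = 0.0304). P3H2 lost its call without any 1 bone marrow array or blood-derived replicate 1 or 3 (adjusted p up to 0.116), and CREB3L1 without any 1 array of these groups or adipose replicate 3 (up to 0.113). Both lost it with the replicate block, and P3H2 in a fit of the 2 groups alone.

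Collagen and elastin are the substrates of these enzymes. Of 19 collagen and elastic fibre genes 8 were higher in blood-derived than in adipose cells and 7 were lower in adipose than in bone marrow cells, with 0 called in the opposite direction and medians of 0.62 and -0.38. The 8 became 6 without bone marrow replicate 3, blood-derived replicate 2 or 3 or adipose replicate 3. COL1A1 was at 10.58 ± 0.11 in bone marrow, 10.46 ± 0.12 in blood-derived and 7.97 ± 0.54 in adipose cells, and COL3A1 was at 8.98 ± 0.17, 9.11 ± 0.26 and 6.42 ± 0.37. COL1A2 and COL5A2 were 2.71 and 1.92 higher in blood-derived than in adipose cells (adjusted p = 8.8e-04 and 8.2e-04). COL11A1, a minor fibrillar chain, was lower in adipose than in bone marrow cells by a log2 difference of -2.98 (adjusted p = 1.7e-04) and was the 1 gene of the list called between blood-derived and bone marrow cells, at -1.54 (adjusted p = 0.011). ELN, the elastin gene, chosen after its values were seen, lay below the median of the table in all groups, at 4.47 ± 0.09, 4.26 ± 0.11 and 4.27 ± 0.29.

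The processing and partner genes were called in both directions. Of 17 genes for procollagen processing and lysyl oxidase function, 3 were higher and 1 lower in blood-derived than in adipose cells, with a median of -0.06. The count of higher genes was 5 without adipose replicate 1. BMP1, the protease that removes the propeptides of LOX and of procollagen, was at 7.37 ± 0.02 in bone marrow, 7.996 ± 0.286 in blood-derived and 5.93 ± 0.24 in adipose cells. FN1, fibronectin, was at 9.14 ± 0.20, 10.25 ± 0.50 and 6.17 ± 0.29. Both were lower in adipose cells than in either other group, with adjusted p of 0.00294 and 5.8e-04 against bone marrow and 5.1e-04 and 1.5e-04 against blood-derived cells. EFEMP2, a fibulin that binds LOX, was 1.28 higher in blood-derived than in adipose cells (adjusted p = 0.015), a call lost in a fit of these 2 groups alone and without blood-derived replicate 2 or 3 (adjusted p up to 0.0559), and 1.78 lower in adipose than in bone marrow cells (adjusted p = 0.00378).

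Against bone marrow cells adipose cells had 6 of the 17 lower and 1 higher, and the 6 became 4 without bone marrow replicate 1 or 2 or adipose replicate 3. The higher gene was PCOLCE2, an enhancer of procollagen C-propeptide removal, at 5.88 ± 0.45 in bone marrow, 8.23 ± 0.76 in blood-derived and 9.20 ± 0.45 in adipose cells (adjusted p = 0.00297). Between blood-derived and bone marrow cells PCOLCE2 was called at an adjusted p = 0.0445 and kept that call only without blood-derived replicate 1 among the 9 fits that left out 1 array (adjusted p up to 0.158), and lost it in a fit of these 2 groups alone. FBLN5, an elastic fibre fibulin that interacts with LOXL1, was lowest in blood-derived cells, at 6.99 ± 0.27, 4.03 ± 0.18 and 6.13 ± 0.57 in the same order (adjusted p = 0.00293 against bone marrow and 0.00378 against adipose cells).

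Hypoxia-induced reference genes were described because several of the 10 enzymes are targets of the same factors. Of 19 measured genes 10 were lower in adipose than in bone marrow cells and 0 higher (median -1.10), and 9 were higher and 1 lower in blood-derived than in adipose cells (median 0.83). The 10 became 8 without any 1 bone marrow array, and the 9 became 6 without blood-derived replicate 3. BNIP3, a mitophagy receptor, was at 11.30 ± 0.24 in bone marrow, 11.68 ± 0.35 in blood-derived and 8.82 ± 0.09 in adipose cells, with an adjusted p of 4.4e-04 and 2.0e-04 for adipose against each. PGK1 and LDHA, of glycolysis, were 1.43 and 0.91 higher in blood-derived than in adipose cells (adjusted p = 2.8e-04 and 0.00224). VEGFA, the angiogenic growth factor, was lower in adipose than in bone marrow cells by a log2 difference of -2.81 (adjusted p = 0.00225). ADM, adrenomedullin, named after its values were seen as the 1 gene lower in blood-derived than in adipose cells, was at 7.92 ± 0.49, 6.03 ± 1.07 and 9.27 ± 0.44 (adjusted p = 0.00827 for blood-derived against adipose cells). CA9, a hypoxia-induced carbonic anhydrase, was called in all 3 comparisons, highest in blood-derived cells at 9.96 ± 0.57 and lowest in adipose cells at 5.94 ± 0.34. Its call against bone marrow cells (8.06 ± 0.13, adjusted p = 0.0244) was lost without any 1 bone marrow array or blood-derived replicate 2 (adjusted p up to 0.11) and in a fit of these 2 groups alone. Whether oxygen supply differed between cultures was not tested.

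TGF-beta-induced reference genes had 5 of 11 higher and 0 lower in blood-derived than in adipose cells (median 1.78) and 4 lower and 0 higher in adipose than in bone marrow cells (median -1.35). The latter count was 2 without any 1 of the bone marrow arrays or adipose replicate 2 or 3. TGFBI, a matrix protein, had the largest difference of the list, 6.38 between blood-derived and adipose cells (adjusted p = 1.3e-05), followed by CDH2, N-cadherin, with 3.59 (adjusted p = 8.9e-04). CCN2, connective tissue growth factor, was at 10.18 ± 0.09 in bone marrow and 6.92 ± 0.96 in adipose cells (adjusted p = 0.00451). SKIL, a SMAD corepressor, and TGFB1 itself were 1.95 and 1.78 higher in blood-derived than in adipose cells (adjusted p = 0.00458 and 0.00705). CDH2 was 2.11 higher in blood-derived than in bone marrow cells (adjusted p = 0.0377), a call kept only without blood-derived replicate 1 or adipose replicate 2 among the 9 fits that left out 1 array (adjusted p up to 0.126), and lost with the replicate block and in a fit of these 2 groups alone.

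**Figure D4:**
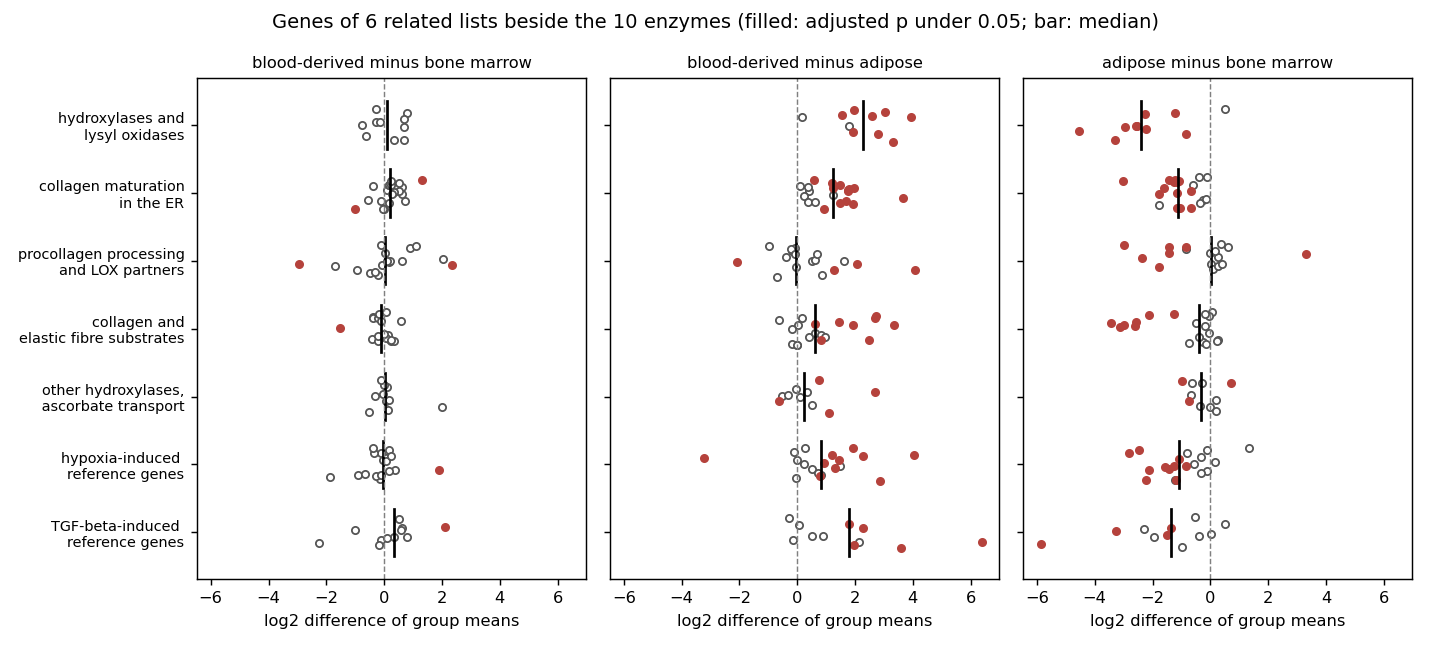
Log2 differences of the 10 enzymes and of the measured genes of 6 related lists in the 3 pairwise comparisons; filled points had an adjusted p under 0.05 by limma and black bars mark the median of each list. The 10 enzymes have medians of 0.10, 2.27 and -2.40 from left to right; the middle and right panels share the adipose arrays.

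Of the markers of other cell types, those of smooth muscle and pericytes differed most often between adipose cells and the other groups. Of 7 smooth muscle and pericyte markers 4 were lower in adipose than in bone marrow cells and 5 were higher in blood-derived than in adipose cells. The 4 became 3 without any 1 bone marrow array and the 5 became 4 without any 1 blood-derived array. ACTA2 was the gene lost, also in fits of the 2 groups alone. DES was 3.65 higher in blood-derived than in bone marrow cells (adjusted p = 0.0048 by limma). That call was kept in all 9 fits without 1 array. The summed linear intensity of the 7 markers was 14369 to 17017 in bone marrow, 16472 to 17568 in blood-derived and 431 to 2242 in adipose cells. RGS5, a pericyte marker, lay below the median of the table in all groups, and MYH11, of mature smooth muscle, did so in adipose cells alone. The linear intensities of the leukocyte markers summed to 642 to 1471 in bone marrow, 308 to 494 in blood-derived and 677 to 2889 in adipose cells. Such sums weigh bright genes such as CD68 most. The mean log2 value of the same 11 markers gave another order, with bone marrow highest. It was 4.99 to 5.79 in bone marrow, 4.27 to 4.51 in blood-derived and 4.64 to 4.95 in adipose cells. In each comparison 1 of these 11 was called by limma. FCER1G was lower in blood-derived than in bone marrow and in adipose cells, calls kept in 6 and 5 of the 9 fits without 1 array. TYROBP was lower in adipose than in bone marrow cells. Adipocyte markers, 5 measured, summed to 160 to 221, 160 to 212 and 248 to 2602. The 2602 was adipose replicate 2, while adipose replicates 1 and 3 lay at 248 and 432. ADIPOQ, the defining gene, lay below the median in all groups, at 4.57 ± 0.37 in adipose cells. FABP4, a fatty acid binding protein, was at 5.54 ± 0.66 in bone marrow, 2.98 ± 0.16 in blood-derived and 8.55 ± 2.54 in adipose cells. Its call between blood-derived and adipose cells (adjusted p = 0.0171 by limma) was the only one of its list. That call was lost without any 1 blood-derived array and in a fit of these 2 groups alone. The 5 endothelial markers summed to 70 to 83 over all arrays, and 0 of them were called in any comparison. Bulk values do not show which cells carried these markers. Their relation to the lower hydroxylase and lysyl oxidase levels of the adipose group was not tested.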

How the data were processed

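The deposited table held 1 log2 intensity per probe set and array. Per the submitters' processing notes, the software was Affymetrix Expression Console, Transcriptome Analysis Console 3 and Partek 6.16.0419. How probes were summarized, whether and how arrays were normalized, and on which build, was not given in the sources used here. Values ran from 0.86 to 13.56, array medians from 4.56 to 4.66, and no normalization was added for the main fit. Precision is limited by having 3 arrays in each group. In R 4.3.3, limma 3.58.1 (lmFit, then eBayes) fitted 1 mean per group to the 9 arrays together (6 residual degrees of freedom), with Benjamini-Hochberg adjustment over 30559 probe sets. The procedure was tested on simulated data.

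Single gene symbols from the platform annotation cover 16789 probe sets, 343 name several genes and 13427 none. Each of the 10 genes had 1 probe set. The 6 related lists and 5 marker lists held 142 genes, 135 of them measured. The members and lists were chosen with earlier results of these data known. Named list genes were up to 4 per list and comparison with the smallest adjusted p past the threshold (2 of the largest statistic where none passed), and for each of the 10 genes the 2 genes of highest correlation. PLOD3, P4HB, ADM, ELN and the single markers lie outside this rule and were chosen after their values were seen. Alternatives were quantile normalization, median centring, leaving out dim probe sets, limma-trend, the replicate number as a block, fits of 2 groups, averaging probe sets of 1 gene, and leaving out each array. Residuals of arrays with the same replicate number correlated at -0.02 to 0.12 and those of others at -0.12 to 0.04, not every same-number value was over 0.1, bone marrow and blood-derived arrays come from separate animals per the labels, no animal is given for adipose arrays, and the numbers were not taken to pair the samples. Protein and promoter sequences were not used here.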

Additional observations from a re-analysis of the deposited data

How the results depend on the processing

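The directions of all 10 genes in the 3 pairwise comparisons were kept in all 16 alternatives, and no call turned its direction. Of 160 values per comparison the side of the threshold was kept by 160 for blood-derived against bone marrow cells, by 158 for blood-derived against adipose cells and by 148 for adipose against bone marrow cells. The 2 exceptions of the second comparison were gains by LOX, without blood-derived replicate 2 and, with an adjusted p = 0.0437, with dim probe sets left out. The 12 of the third were losses by LOX, LOXL1 and LOXL3, given above. Of 150 F tests 8 were lost, all by LOX. The number of the 10 genes called ran from 6 to 9 in adipose against bone marrow cells, from 8 to 9 in blood-derived against adipose cells and from 8 to 9 by the F test over the fits without 1 array. With the replicate block these numbers were 9, 8 and 8. The cause of these losses was not tested, though each fit without 1 array has fewer arrays.

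Counts over all probe sets moved more. Between blood-derived and bone marrow cells 249 were called with all arrays, 479 with dim probe sets left out and 86 to 384 without 1 array. Between blood-derived and adipose cells 2116 were called, 1029 in a fit of these 2 groups and 1176 to 2037 without 1 array. Between adipose and bone marrow cells 1857 were called and 849 to 2012 without 1 array, and by the F test 2286 and 1336 to 2101. With the replicate block the 4 counts were 263, 1625, 1492 and 1745. Quantile normalization and median centring moved the median of all differences by at most 0.04. All 10 genes passed the filter on dim probe sets; how far the lowest values, such as the adipose values of PLOD2, LOXL2 and LOXL3, lie above background could not be judged.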

Other observations

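Other hydroxylases that use 2-oxoglutarate, listed apart from the collagen hydroxylases above, were also measured. Of 10 such genes and ascorbate transporters 3 were higher and 1 lower in blood-derived than in adipose cells, and 2 were lower and 1 higher in adipose than in bone marrow cells. The shares of all probe sets were, in the same order, 3.49% and 3.43%, and 3.25% and 2.83%. JMJD6, a lysyl hydroxylase of nuclear proteins, was at 7.67 ± 0.14 in bone marrow, 7.80 ± 0.15 in blood-derived and 6.70 ± 0.08 in adipose cells (adjusted p = 0.00226 and 0.00425 by limma for adipose against blood-derived and bone marrow cells). EGLN3, an oxygen sensor that hydroxylates hypoxia-inducible factors and is itself induced by hypoxia, was at 5.19 ± 0.09, 7.19 ± 0.90 and 4.51 ± 0.70. It was called between blood-derived and adipose cells (adjusted p = 0.0125, lost in a fit of these 2 groups alone) and not between blood-derived and bone marrow cells (adjusted p = 0.11).

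EGLN1, the main oxygen sensor, was higher in adipose cells than in the other groups, at 7.07 ± 0.18, 7.18 ± 0.13 and 7.79 ± 0.13 (adjusted p = 0.0206 against bone marrow and 0.0341 against blood-derived cells). The first call was lost without bone marrow replicate 2 or 3 or adipose replicate 3 and the second in 7 of the 9 fits without 1 array, with adjusted p up to 0.077 and 0.107. Both were lost in fits of the 2 groups alone, and the second with the replicate block. HIF1AN, the asparaginyl hydroxylase of the same factors, was lower in adipose cells at 5.29 ± 0.33 against 6.03 ± 0.08 and 6.05 ± 0.19 (adjusted p = 0.0474 and 0.0416). Each of its calls was kept in 1 of the 9 fits without 1 array and lost with quantile normalization, with median centring, with the replicate block and in fits of the 2 groups alone. P4HTM, a transmembrane prolyl hydroxylase, had no call, at 6.07 ± 0.21, 5.55 ± 0.14 and 5.44 ± 0.21 (adjusted p = 0.0591 for adipose against bone marrow cells).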
